A study of Mus musculus and Homo sapiens with 22 samples.

Results

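NF-kB feedback and target genes were followed through every library as 5 genes: Nfkbia, Tnfaip3, Relb, Ptgs2 and Birc3 in the mouse libraries labelled 4T1, and their human counterparts NFKBIA, TNFAIP3, RELB, PTGS2 and BIRC3 in MDA-MB-231. The rule names them by symbol or gene ID and sets no threshold on a value, and they are 5 of 38924 mouse and 5 of 42713 human gene IDs in the count tables. All 5 passed the filter on low counts in both lines, where 15375 mouse and 14826 human genes were tested. MDA-MB-231 is a human triple-negative breast carcinoma line and 4T1 a mouse mammary carcinoma line. The cells had received ENMD-2076 or TAK901, both known as inhibitors of Aurora kinases, or the solvent DMSO, and the time of exposure was 24 h. The groups of MDA-MB-231 were DMSO, ENMD-2076 at 2.5 or 5 µM and TAK901 at 1 or 2 µM. Those labelled 4T1 were DMSO 1 and 2, ENMD-2076 (1.25 µM, 2.5 µM), DMSO 3 and 4, and TAK901 at 1 or 2 µM. No transgene or genotype was named, and each of the 11 groups held 2 libraries, 22 in all. The labels do not say whether replicates were separate cultures, so the spread behind each p is that of these libraries and may be technical.

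NF-kB is a family of dimeric transcription factors that are held in the cytoplasm by inhibitor proteins and released when an upstream kinase complex marks the inhibitor for destruction. Several genes that NF-kB turns on encode its own brakes, so their RNA is widely read as a sign of pathway activity, although other factors act on them too. Nfkbia encodes IkB alpha, the inhibitor that is resynthesised after a stimulus, and Tnfaip3 a ubiquitin-editing enzyme that shuts off signalling upstream of the kinase complex. Relb encodes the subunit of the non-canonical arm. Ptgs2, the inducible cyclooxygenase that makes prostaglandin precursors, and Birc3, a ubiquitin ligase that protects cells from death receptor signalling, are targets. In carcinoma cells these genes are known for inflammatory output and survival.

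In mm10, by the GENCODE M21 annotation, Nfkbia lies at chr12:55489410-55492647 (minus strand), Tnfaip3 at chr10:19000910-19015657 (minus), Relb at chr7:19606217-19629438 (minus), Ptgs2 at chr1:150100031-150108227 (plus) and Birc3 at chr9:7848699-7873186 (minus). No other gene of that annotation overlapped any of the 5 loci. The kappa B consensus, the binding motif of NF-kB, was searched on both strands. The promoter stretches below are shown because they hold the only matches to it found among the members. They come from RefSeq (GRCm38.p6, the same assembly as mm10), read 5′ to 3′ on the gene's strand, with matches in capitals. The first is the 250 bases before the Nfkbia start, chr12:55492648-55492897, and the others are 30-base stretches of the upstream Tnfaip3 promoter, chr10:19015516-19015545 and chr10:19015411-19015440.
Nfkbia: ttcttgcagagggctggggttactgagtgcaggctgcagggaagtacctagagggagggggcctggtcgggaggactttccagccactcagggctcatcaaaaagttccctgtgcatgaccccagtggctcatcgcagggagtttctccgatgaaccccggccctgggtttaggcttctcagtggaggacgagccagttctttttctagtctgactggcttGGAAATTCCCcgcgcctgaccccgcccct
Tnfaip3, distal match: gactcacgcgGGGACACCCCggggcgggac
Tnfaip3, proximal match: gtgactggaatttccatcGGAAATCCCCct
The Nfkbia match GGAAATTCCC lay 29 to 20 bases before the start. The Tnfaip3 matches lay 125 to 116 and 12 to 3 bases before the RefSeq start. Both lie inside the GENCODE locus given above, which starts further upstream, and outside annotated exons. No match was found in the 250 bases before the other Tnfaip3 start, the Ptgs2 start or the Birc3 start. Relb had no entry. Of 32851 promoter windows of this length in the table, 1281 (3.90%) held a match, which is a description of letters and not of binding.

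The libraries labelled 4T1 came in 2 naming sets that stood apart before any compound was considered, so every treated group is set against the DMSO pair of the same set. Set 1 held DMSO 1 and 2 and ENMD-2076, and set 2 held DMSO 3 and 4 and TAK901. Y-linked genes had 0 reads in the 6 libraries of set 1 and 1004 to 7021 reads per library in set 2, and Hnf4a, which encodes a hepatocyte nuclear factor, 0 reads in set 1 and 954 to 7295 in set 2. The pair labelled ENMD-2076 2.5 µM also stood apart: the noncoding transcript Gm26917 was at 2004 and 2185 CPM there and at 29.9 to 92.6 in the other 10 libraries. Reads in genes totalled 13.4 to 24.0 M in the libraries of MDA-MB-231. Those labelled 4T1 had 14.4 to 30.9 M, except TAK901 at 2 µM with 3.75 and 6.00 M. Of the carcinoma line markers, Krt8, Krt18, Epcam, Cdh1 and Vim were detected in every library labelled 4T1, and Krt14 in every group. Krt5, of the same list, differed between the sets, with 0 reads in every group of set 1 and some in each group of set 2. Of the other lists of markers the haematopoietic ones summed to at most 27.7 CPM, the fibroblast ones to at most 44.4 and the endothelial ones to at most 5.04. Levels are CPM, counts scaled to a common library total after TMM scaling for library composition, and are compared between groups for a gene, not between genes.

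All 5 genes already differed between the DMSO libraries of the 2 sets labelled 4T1. Nfkbia was at 49.1 and 48.8 CPM in DMSO 1 and 2 and at 81.1 and 83.3 in DMSO 3 and 4 (log2 difference 0.75, SE 0.09, adjusted p = 5.1e-09). Tnfaip3 was at 95.5 and 88.7 against 149 and 152 CPM (0.71, adjusted p = 3.4e-11), and Birc3 at 11.8 and 13.4 against 17.0 and 15.3 CPM (0.36, adjusted p = 0.0399). The subunit and the cyclooxygenase gene went the other way. Relb was at 31.7 and 32.1 against 17.2 and 15.6 CPM (-0.96, adjusted p = 7.8e-08) and Ptgs2 at 194 and 195 against 144 and 152 CPM (-0.39, adjusted p = 7.9e-06). Of all genes tested 67.3% passed in this comparison (edgeR quasi-likelihood test, Benjamini-Hochberg adjusted p under 0.05, as in all comparisons here), so 5 of 5 members is little above the background. The Birc3 difference did not pass in DESeq2 (adjusted p = 0.0704), nor without DMSO replicate 1 (0.27, 0.222), replicate 3 (0.29, 0.214) or replicate 4 (0.44, 0.0541), nor without either TAK901 1 µM library (0.0555 and 0.0561). What sets the naming sets apart was not tested, and the levels of ENMD-2076 and TAK901 libraries are therefore given side by side without comparison.

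**Figure D1:**
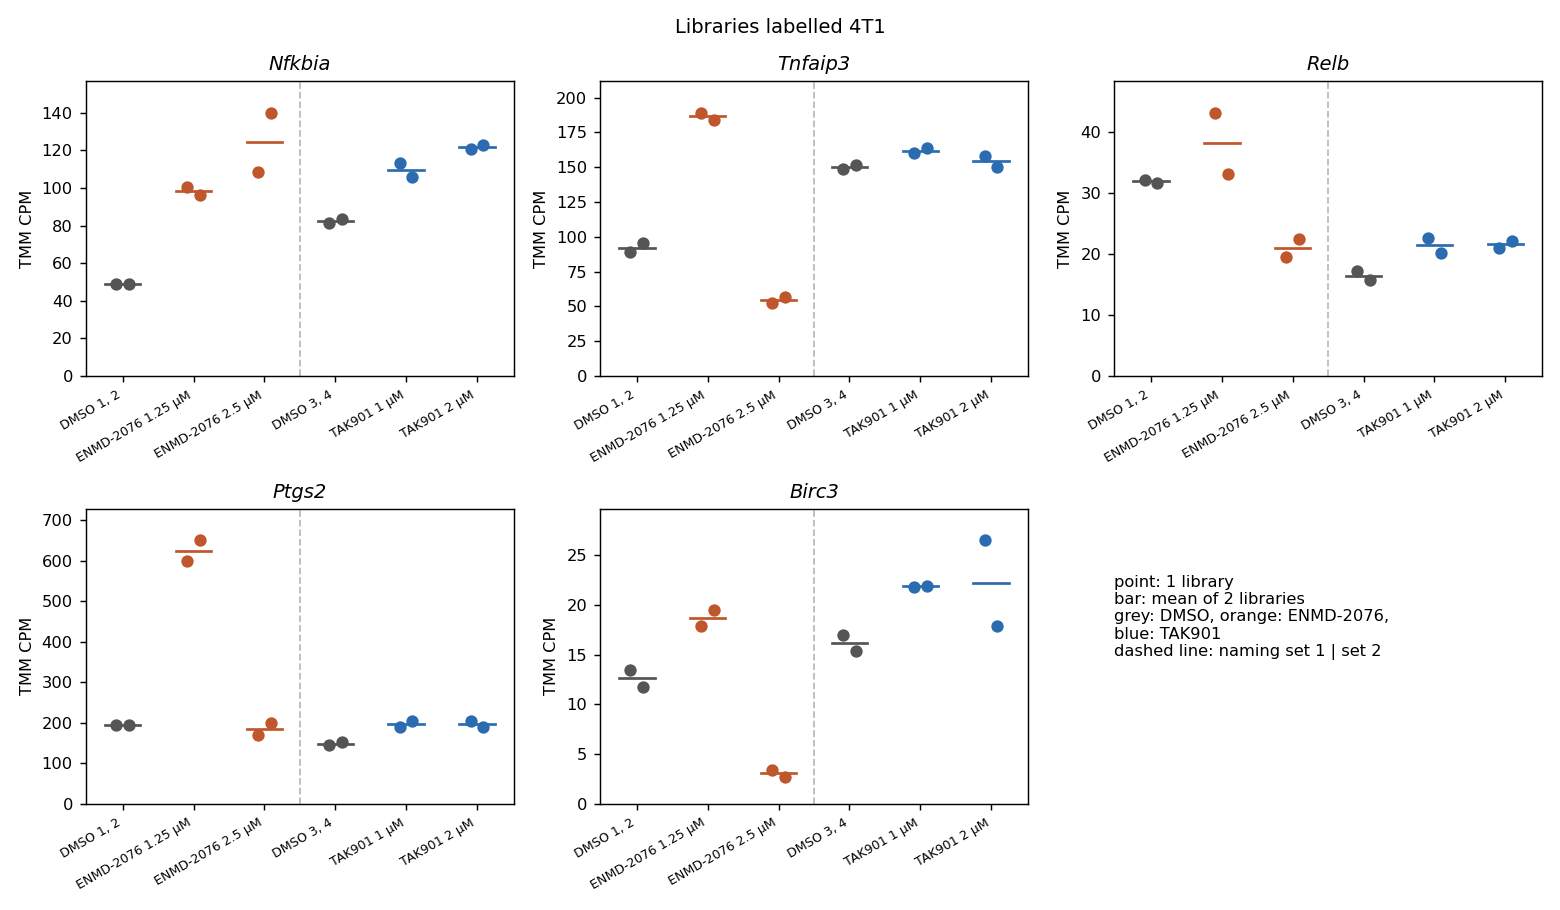
Level of each gene in the 12 libraries labelled 4T1 (y axis, TMM CPM from 0, x axis, group; points are libraries and bars the mean of 2). Ptgs2 stands at 599.5 and 649.9 CPM with 1.25 µM ENMD-2076 and at 144 to 204 CPM in the other 10 libraries, and Birc3 falls to 3.41 and 2.65 CPM with 2.5 µM.

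At 1.25 µM ENMD-2076 the feedback inhibitors and both targets rose in the libraries labelled 4T1. Nfkbia went from 49.1 and 48.8 CPM in DMSO 1 and 2 to 101 and 96.0 CPM. Both treated libraries lay above both controls, a 2.00-fold rise (log2 fold change 1.00, SE 0.09, adjusted p = 2.2e-11). Tnfaip3 went from 95.5 and 88.7 to 189 and 184 CPM, a 2.02-fold rise without overlap of the groups (1.02, SE 0.06, adjusted p = 1.4e-14). Ptgs2 had the largest fold change of the 5 in this comparison: from 194 and 195 to 599.5 and 649.9 CPM, 3.22-fold (1.68, SE 0.07, 95% interval 1.55 to 1.82, adjusted p = 1.6e-19). Birc3 rose 1.49-fold, from 11.8 and 13.4 to 17.9 and 19.5 CPM (0.57, SE 0.15, adjusted p = 0.00257). Relb did not pass the test: it was at 43.2 and 33.1 CPM against 31.7 and 32.1, a log2 difference of 0.24 with a 95% interval from -0.00 to 0.49 (adjusted p = 0.103). Both libraries lay above the controls, but its replicates differed by more than the group means did, and without replicate 2 of this dose the value was 0.44 (adjusted p = 0.0066).

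Of all genes tested 45.9% passed at this dose, 22.6% as higher and 23.2% as lower, against 4 of 5 members, all 4 higher. The members' median log2 fold change was 1.00, where that of all genes was 0.00. Values of the cell identity markers moved as well: Krt14, a basal keratin, was at 0.649 and 0.295 CPM in DMSO and 56.4 and 53.7 with compound, Vim fell from 2185 and 2230 to 460 and 419 CPM, and Csf1r, a macrophage receptor gene, was at 8.93 and 12.9 CPM against 0.108 and 0.825. The haematopoietic list summed to 23.6 to 27.7 CPM there against 11.4 to 13.3 in DMSO, with Ptprc, Adgre1 and Cd3e, which are among its defining genes, at 0 reads in both libraries. Fewer cells of a type and less RNA per cell cannot be told apart in such bulk libraries, and the part of these shifts in the results was not tested.

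At 2.5 µM the members separated. Nfkbia rose above DMSO here too, to 109 and 140.1 CPM (2.53-fold, log2 fold change 1.34, SE 0.09, adjusted p = 9.8e-15). Tnfaip3, the other feedback inhibitor, fell below DMSO, to 52.6 and 56.8 CPM (-0.76, SE 0.07, adjusted p = 5.0e-11), and neither library overlapped the controls. Relb fell to 19.4 and 22.5 CPM (-0.61, SE 0.13, adjusted p = 1.2e-04). Birc3 fell most of the 5, to 3.41 and 2.65 CPM, from 54 and 30 reads, 4.08-fold lower than DMSO (-2.03, SE 0.21, 95% interval -2.45 to -1.61, adjusted p = 3.4e-10). Ptgs2 was at 169.7 and 199.9 CPM and overlapped the controls at 194 and 195 (-0.08, 95% interval -0.22 to 0.06, adjusted p = 0.330).

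Here 70.3% of all genes passed, against 4 of 5 members, which is close to the background. These were the libraries with high Gm26917, and TMM factors of 0.766 and 0.784 against at least 0.989 in the other 10. Scaled to total counts instead, the median of all genes was -0.37 in place of -0.02, with 3760 genes higher and 7247 lower in place of 5111 and 5705. Nfkbia was then at 0.98 on the log2 scale, Tnfaip3 at -1.11, Relb at -0.97, Birc3 at -2.39 and Ptgs2 at -0.43, which passed (adjusted p = 2.5e-06). Relative to that median they were 1.35, -0.74, -0.60, -2.02 and -0.06. Mitochondrial genes held 3.92 and 4.13% of counts in DMSO 1 and 2, 6.21 and 7.09% at 1.25 µM and 8.83 and 8.72% at 2.5 µM. Of 4 endothelial markers tested 3 rose at 2.5 µM (median 2.84), with the list summing to 3.47 to 5.04 CPM against 0.589 to 0.757 in DMSO and Cdh5 and Vwf at 0 reads. Of 6 carcinoma line markers tested 2 rose and 2 fell, and the list summed to 3840 to 3916 CPM against 5365 to 5466. The part of these values and of Gm26917 in the member differences was not tested.

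The doses of ENMD-2076 were also compared with each other in the libraries labelled 4T1. Relative to 1.25 µM, Birc3 was 6.08-fold lower at 2.5 µM (log2 difference -2.60, SE 0.20, adjusted p = 3.5e-13), Tnfaip3 3.42-fold lower (-1.77, SE 0.07, adjusted p = 2.1e-20), Ptgs2 3.39-fold lower (-1.76, SE 0.07, adjusted p = 2.1e-20) and Relb 1.81-fold lower (-0.86, SE 0.13, adjusted p = 6.2e-07). Nfkbia was higher at 2.5 µM by 0.33 (SE 0.08, adjusted p = 5.3e-04). That value became -0.04 with total count scaling (adjusted p = 0.671), so the Nfkbia call rests on the scaling, though relative to the median of all genes it was 0.34. All 5 members passed, beside 73.3% of all genes. In order of level within set 1, Nfkbia ran from DMSO to 1.25 µM to 2.5 µM, whereas Tnfaip3, Relb and Birc3 ran from 2.5 µM to DMSO to 1.25 µM with no overlap between neighbours. For Ptgs2 the order was the same, with 2.5 µM and DMSO overlapping.

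With TAK901 every member that passed in the libraries labelled 4T1 was higher than in DMSO. Nfkbia went from 81.1 and 83.3 CPM in DMSO 3 and 4 to 113 and 106 CPM at 1 µM (1.33-fold, SE 0.08 on the log2 scale, adjusted p = 8.8e-04) and to 121 and 123 CPM at 2 µM (0.57, SE 0.09, adjusted p = 3.0e-05). Ptgs2 went from 144 and 152 CPM to 189.8 and 204 CPM (0.41, SE 0.07, adjusted p = 1.2e-04) and 203 and 189.9 CPM (0.41, SE 0.07, adjusted p = 1.6e-04). Both genes were higher in 4 of 4 treated libraries. Tnfaip3 was at 160.4 and 164 CPM at 1 µM and 158 and 151 CPM at 2 µM, against 149 and 152 in DMSO, and neither value passed (0.11, 95% interval -0.02 to 0.23, adjusted p = 0.344; and 0.04, interval -0.10 to 0.18, adjusted p = 0.775).

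Other values moved with TAK901 as well. Of 6 carcinoma line markers tested 2 rose and 2 fell at 1 µM, and 2 rose and 3 fell at 2 µM, and the list summed to 6770 to 7443 CPM in DMSO 3 and 4, 6181 to 6269 at 1 µM and 5694 to 6131 at 2 µM. The mitochondrial share was 1.94 and 2.04% in DMSO 3 and 4 and 2.64 to 2.98% in the 4 TAK901 libraries. Their part in the member results was not tested.

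Relb and Birc3 lay near the threshold with TAK901. Relb was at 22.7 and 20.1 CPM at 1 µM and 20.9 and 22.2 CPM at 2 µM against 17.2 and 15.6 in DMSO, with log2 fold changes of 0.38 (adjusted p = 0.0615) and 0.39 (adjusted p = 0.0976). Birc3 was at 21.8 and 22.0 CPM at 1 µM against 17.0 and 15.3 (0.44, adjusted p = 0.0536), and at 26.5 and 17.9 CPM at 2 µM (0.49, SE 0.17, adjusted p = 0.0441). The 2 µM replicates rested on 176 and 75 reads. Without replicate 1 of that dose the Birc3 value was 0.15 (adjusted p = 0.794), without DMSO replicate 3 it was 0.56 (0.0986) and without replicate 4 0.41 (0.280), and without either 1 µM library 0.49 (0.0760 and 0.0729). DESeq2 did not call it either (0.0668). In a fit of set 2 alone Relb and Birc3 passed at 1 µM (adjusted p = 0.00601 and 0.00287), as did Relb at 2 µM (0.0192).

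At 1 µM TAK901 2 of 5 members passed beside 9.14% of all genes, and at 2 µM 3 of 5 beside 14.9%, each of them higher. Over all genes 1406 passed at 1 µM, 3042 with set 2 alone and 3719 with only the 2 groups in the fit. With total count scaling 746 of all genes were higher and 640 lower, in place of 611 and 795. The count of members at 1 µM was 4 with total count scaling, with set 2 alone, with only the 2 groups in the fit and without both ENMD-2076 2.5 µM libraries. It also moved when single libraries were left out, as did the number of all genes passing. Over all alternatives the log2 fold changes at 1 µM ran from 0.29 to 0.47 for Relb and from 0.36 to 0.52 for Birc3. Between the doses 0 of 5 members passed beside 0.0715% of all genes, with 0 members at an unadjusted p under 0.05. DESeq2 gave an adjusted p for 2 of the members here, Tnfaip3 (0.832) and Ptgs2 (0.916). The 95% interval of the log2 difference between doses was -0.02 to 0.34 for Nfkbia, -0.20 to 0.07 for Tnfaip3, -0.30 to 0.33 for Relb, -0.15 to 0.15 for Ptgs2 and -0.28 to 0.39 for Birc3. In order of level within set 2, Nfkbia ran from DMSO to 1 µM to 2 µM with no overlap, and for the other 4 genes the TAK901 doses overlapped, except Tnfaip3, whose 2 µM libraries overlapped DMSO and lay below 1 µM.

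**Figure D2:**
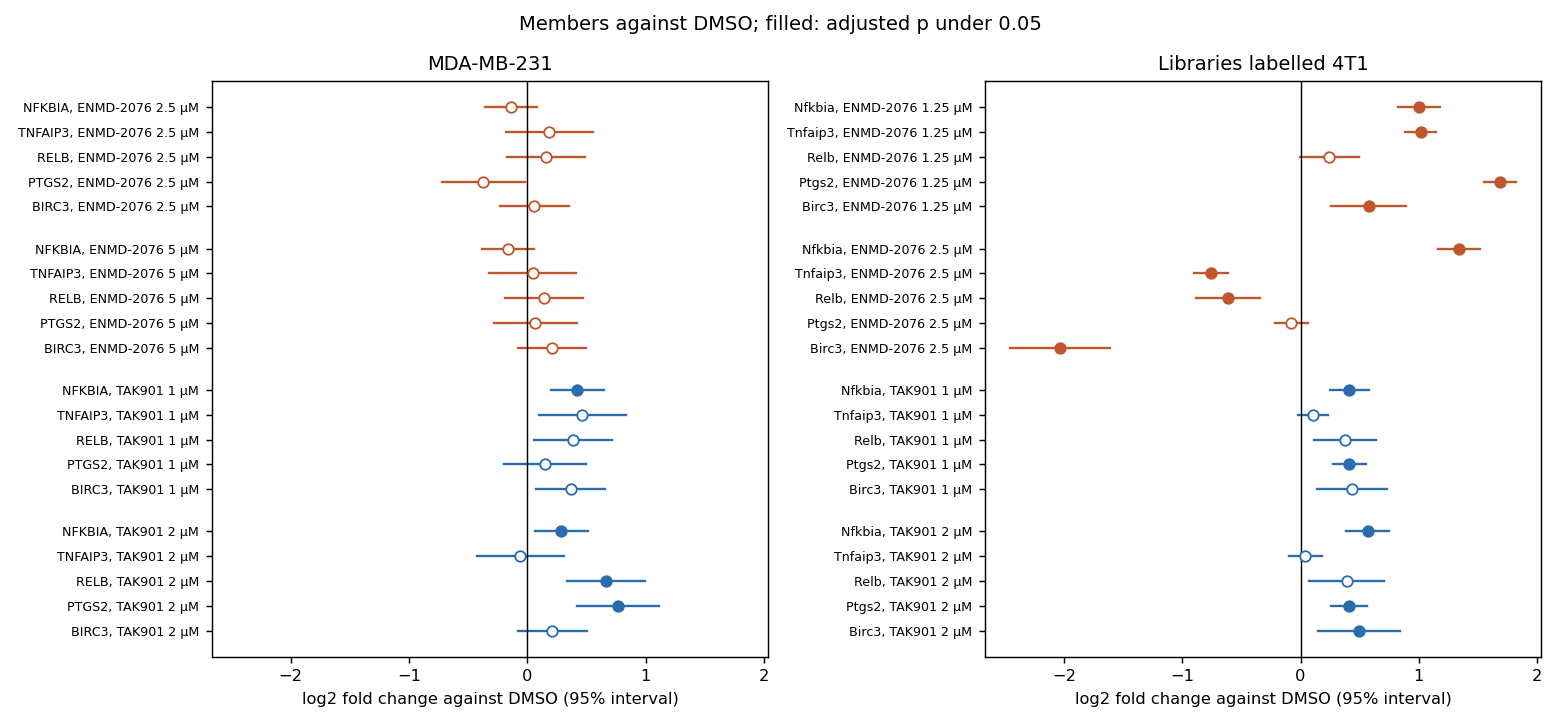
Log2 fold change of each gene against the DMSO libraries of its line and set (x axis, with 95% intervals; rows are gene and group; filled points passed adjusted p under 0.05). With ENMD-2076 at 2.5 µM the libraries labelled 4T1 spread from -2.03 for Birc3 to 1.34 for Nfkbia. The MDA-MB-231 values at that labelled dose lie between -0.37 and 0.19 and none is filled.

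In MDA-MB-231 ENMD-2076 left no member past the threshold at either dose. NFKBIA (ENSG00000100906.6) had 111 and 104 CPM without compound, 97.6 and 97.9 with 2.5 µM and 95.6 and 96.7 CPM at 5 µM. The treated libraries were all below the controls, but the log2 fold changes of -0.14 (95% interval -0.36 to 0.08, adjusted p = 0.639) and -0.16 (-0.38 to 0.06, 0.415) did not pass. TNFAIP3 (ENSG00000118503.10) overlapped DMSO, with 66.2 and 77.8 CPM there, 86.2 and 77.6 at 2.5 µM and 75.9 and 73.0 at 5 µM. RELB (ENSG00000104856.9) was at 35.7 and 29.6 CPM in DMSO, 36.6 and 36.0 at 2.5 µM and 34.4 and 37.3 at 5 µM, and BIRC3 (ENSG00000023445.9) at 99.7 and 126 CPM, 118 and 117, and 127 and 134. PTGS2 (ENSG00000073756.7) was at 55.5 and 76.0 CPM in DMSO, 52.6 and 49.1 at 2.5 µM and 70.4 and 67.8 at 5 µM. The value at 2.5 µM was -0.37 (interval -0.72 to -0.02, adjusted p = 0.393), with an adjusted p = 0.0479 without TAK901 2 µM replicate 1.

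Of all genes tested 0.607% passed at 2.5 µM and 4.89% at 5 µM, and 0 of 5 members at each. At an unadjusted p under 0.05 the counts were 1, PTGS2, and 0, and DESeq2 called 0 members at both doses. The intervals bound what these libraries can show. At 5 µM they ran from -0.32 to 0.41 for TNFAIP3, -0.19 to 0.47 for RELB, -0.28 to 0.42 for PTGS2 and -0.08 to 0.50 for BIRC3, so a fold change of the size seen for Ptgs2 at 1.25 µM in the libraries labelled 4T1 lay outside them. Between the doses 0 of 5 members passed beside 0.0135% of all genes. PTGS2 was higher at 5 µM by 0.44 (95% interval 0.09 to 0.79, unadjusted p = 0.017, adjusted p = 0.858), and passed only with these 2 groups alone in the fit (adjusted p = 9.8e-04).

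**Figure D3:**
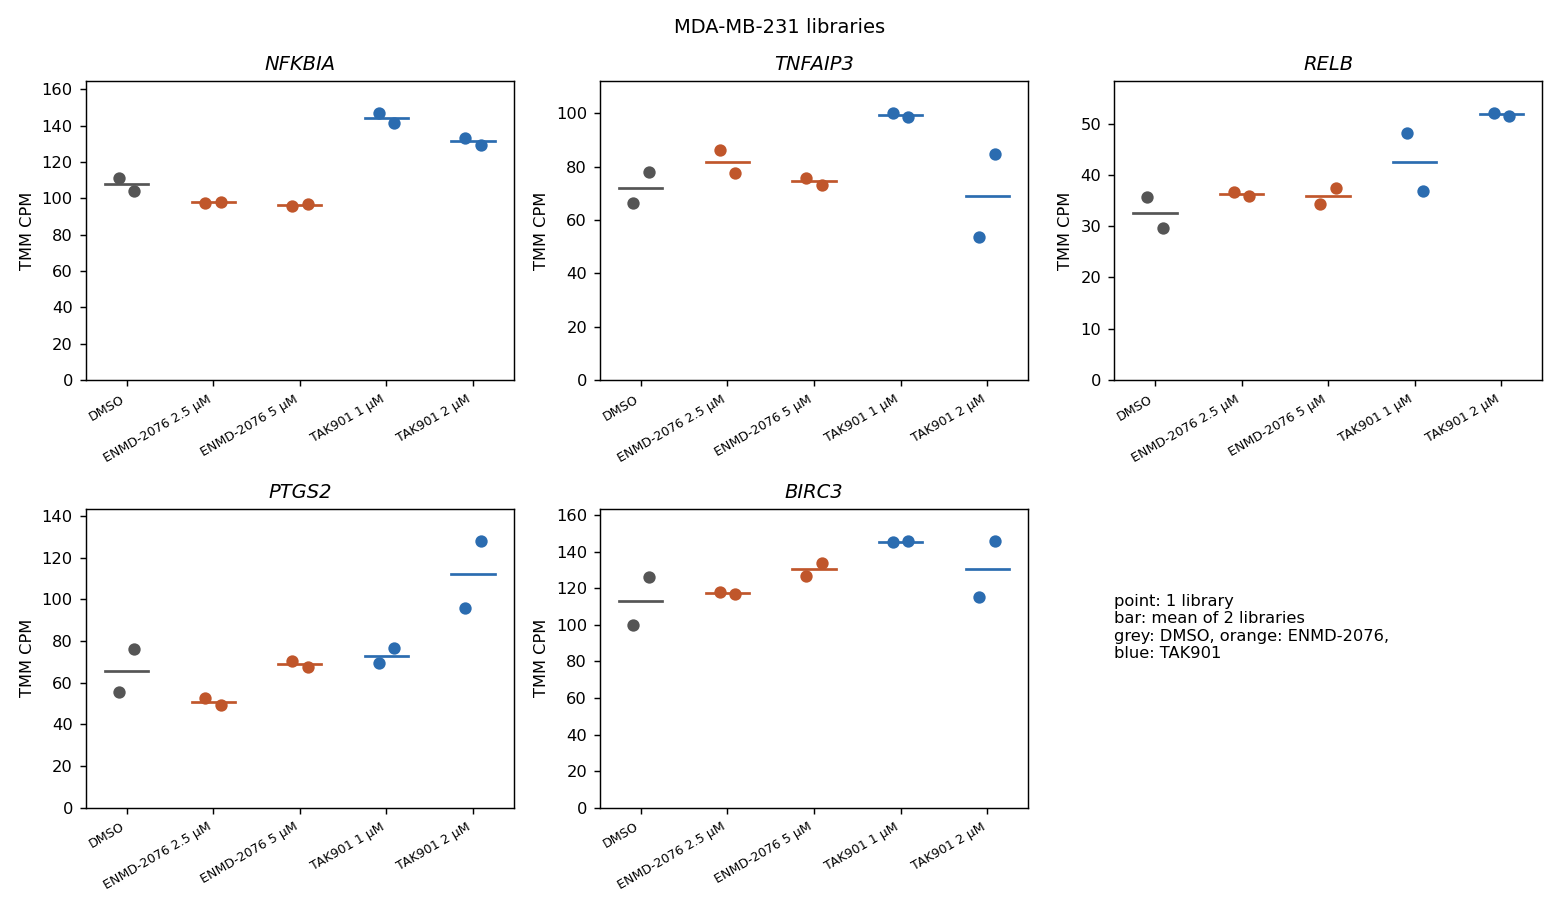
Level of each gene in the 10 MDA-MB-231 libraries (y axis, TMM CPM from 0, x axis, group; points are libraries and bars the mean of 2). NFKBIA lies at 129 to 147 CPM in the 4 TAK901 libraries and at 95.6 to 111 CPM in the other 6, and the replicates with 2 µM TAK901 stand apart for TNFAIP3, PTGS2 and BIRC3.

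TAK901 raised NFKBIA in MDA-MB-231. From 111 and 104 CPM in DMSO it stood at 147 and 142 CPM at 1 µM (0.42 on the log2 scale, 1.34-fold, SE 0.10, adjusted p = 0.0157) and 133 and 129 CPM at 2 µM (1.22-fold, 0.29, SE 0.10, adjusted p = 0.0472). All 4 treated libraries were above both controls. The 1 µM call was lost when either DMSO library was left out (adjusted p = 0.0626 and 0.126) or either 1 µM library (0.114 and 0.0829). The 2 µM call was lost in 13 of 15 alternatives, among them DESeq2 (0.0636), with log2 fold changes from 0.24 to 0.33.

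At 1 µM the other 4 genes had higher means than DMSO and did not pass. TNFAIP3 was at 100.1 and 98.7 CPM against 66.2 and 77.8 (0.46, 95% interval 0.10 to 0.83, adjusted p = 0.0878), BIRC3 at 145 and 146 against 99.7 and 126 (0.37, interval 0.08 to 0.66, adjusted p = 0.0884) and RELB at 48.1 and 36.9 against 35.7 and 29.6 (0.38, interval 0.05 to 0.71, adjusted p = 0.115). PTGS2 overlapped DMSO (0.15, adjusted p = 0.596). So 1 of 5 members passed beside 13.9% of all genes. The replicates of 2 µM differed most of all groups (chi-square per degree of freedom 54.2, against at most 8.12). Without both 2 µM libraries, 3970 of all genes passed at 1 µM in place of 2065. Of the members 4 of 5 passed at 1 µM in that fit. In the fit without both these were TNFAIP3 (0.46, adjusted p = 7.8e-04), BIRC3 (0.36, 0.00421), RELB (0.38, 0.0379) and NFKBIA.

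At 2 µM RELB and PTGS2 rose beside NFKBIA. RELB was at 52.0 and 51.5 CPM against 35.7 and 29.6, 1.59-fold higher (0.67, SE 0.15, adjusted p = 0.00484), and PTGS2 at 95.8 and 128 against 55.5 and 76.0, 1.70-fold higher (0.77, SE 0.16, adjusted p = 0.0028). Neither gene overlapped its controls. RELB did not pass without DMSO replicate 2 (0.54, adjusted p = 0.0642), nor PTGS2 without DMSO replicate 1 (0.55, 0.0543). TNFAIP3 was at 53.6 CPM in replicate 1 and 84.6 CPM in replicate 2, on either side of DMSO (-0.06, adjusted p = 0.828). Without replicate 2 the TNFAIP3 value was -0.44 (adjusted p = 0.00734) and without replicate 1 it was 0.23 (adjusted p = 0.159), so each replicate carries its own direction. BIRC3 was at 115 and 146 CPM and overlapped DMSO (0.21, adjusted p = 0.263), with 0.36 without replicate 1 (adjusted p = 0.0121).

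Here 3 of 5 members passed beside 31.2% of all genes. The count of members fell or rose with the library left out, and the number of all genes passing moved as well. Over 15 alternatives the log2 fold changes ran from 0.24 to 0.33 for NFKBIA, 0.54 to 0.80 for RELB and 0.53 to 1.02 for PTGS2. Those of TNFAIP3 ran from -0.44 to 0.23 and those of BIRC3 from 0.02 to 0.40. Between the TAK901 doses 1 of 5 passed beside 3.74% of all genes: PTGS2 was higher at 2 µM by 0.62 (SE 0.16, adjusted p = 0.0499). That call was lost in 10 of 15 alternatives, with log2 differences from 0.38 to 0.81. TNFAIP3 was lower at 2 µM by a log2 difference of -0.52 (95% interval -0.89 to -0.15, adjusted p = 0.101). In order of level, NFKBIA and RELB had TAK901 highest, and for RELB DMSO overlapped ENMD-2076 at 5 µM and lay below 2.5 µM. For TNFAIP3, PTGS2 and BIRC3 the groups next to DMSO in that order overlapped it, except ENMD-2076 2.5 µM for PTGS2.

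The doses that both lines received by their labels can be set side by side. Doses of a compound share their DMSO libraries, and differences between the lines were not tested. For ENMD-2076 in 4T1 the growth protocol gives 1 or 2 µM, so a shared dose rests on the labels. At the labelled dose of 2.5 µM ENMD-2076, NFKBIA was at -0.14 in MDA-MB-231 and Nfkbia at 1.34 in the libraries labelled 4T1. At 1 and 2 µM TAK901 the values of NFKBIA were 0.42 and 0.29 and those of Nfkbia 0.41 and 0.57. Those TAK901 libraries labelled 4T1 are of set 2, with the Y-linked and Hnf4a reads that set 1 lacked. What sets them apart was not tested.

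The wider pathway was described in the libraries labelled 4T1 with 9 lists of 123 further genes, 117 of them tested. With ENMD-2076 at 1.25 µM, 52 rose and 22 fell, where 22.6% of all genes passed as higher and 23.2% as lower, and their median was 0.25 on the log2 scale beside 0.00 for all genes. At 2.5 µM 31 rose and 56 fell, where 33.2% of all genes were higher and 37.1% lower, so the total of 87 of 117 is near the background. Their median was -0.32 beside -0.02, and with total count scaling 21 rose and 67 fell. TAK901 gave 16 rises and 6 falls at 1 µM (median 0.07), beside 3.97% of all genes higher and 5.17% lower. At 2 µM there were 19 and 7 (0.08), beside 5.63% and 9.28%. The counts of single lists that follow stand against these same shares, and no list was tested as a group. The 1 µM count of 22 was 39 with only the 2 groups in the fit, and it moved over the libraries left out in turn. Over all genes, the 1406 that passed at that dose became 3719 with only the 2 groups, and moved over the libraries left out too. With genes at 0 reads in a group set to a bound of 3 reads per library, the ENMD-2076 medians were 0.28 and -0.35. That bound was scaled to total counts without the TMM factors, so these medians are approximate.

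**Figure D4:**
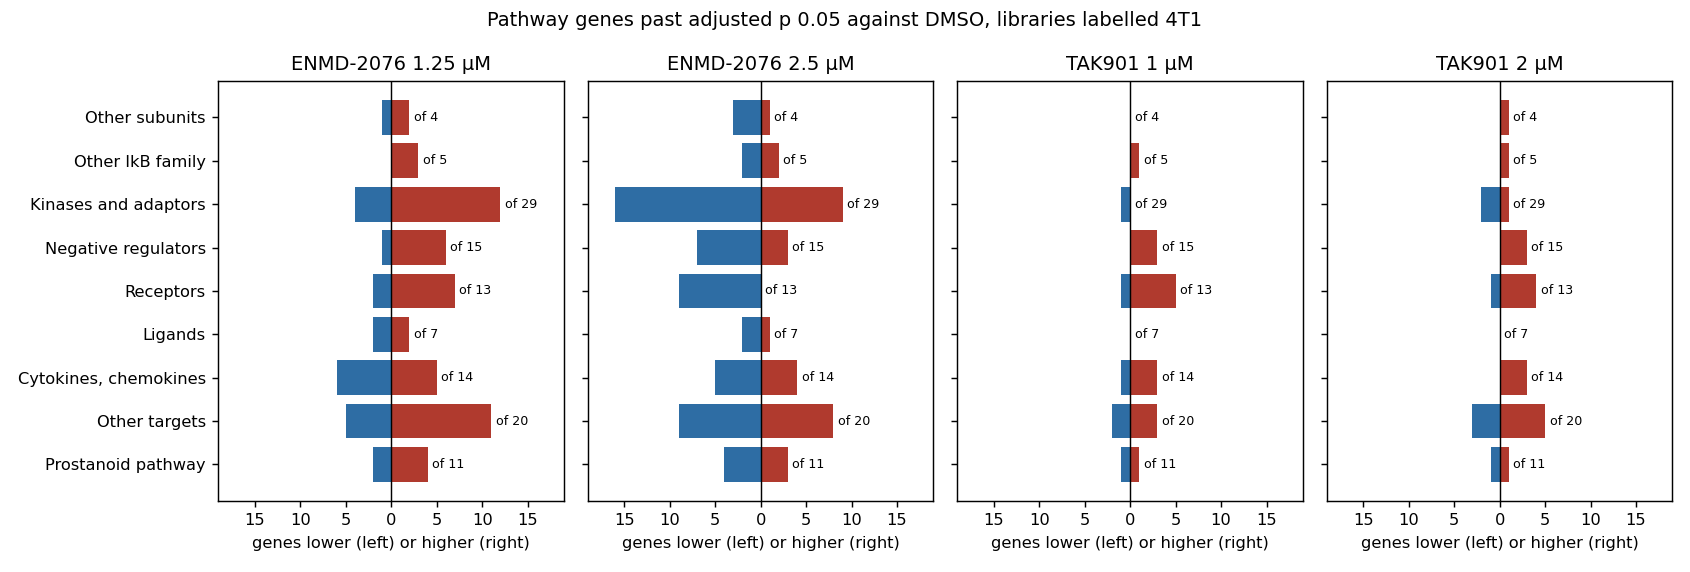
Number of genes of each pathway list that passed as higher (right of 0) or lower (left of 0) against DMSO in the libraries labelled 4T1, with the number tested beside each bar. Of 13 genes in the receptor list, which includes the receptor antagonist gene Il1rn, 7 were higher and 2 lower at 1.25 µM ENMD-2076. At 2.5 µM 0 were higher and 9 lower.

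Among the other brakes on the pathway, 6 of 15 negative regulators rose and 1 fell at 1.25 µM (median 0.22), and 3 rose and 7 fell at 2.5 µM (median -0.09, and 0 rose and 10 fell with total count scaling). Tnip1, a partner of the Tnfaip3 protein, went from 50.2 ± 0.286 CPM (SD, n = 2) to 95.6 ± 4.05 at 1.25 µM (0.92, SE 0.07, adjusted p = 5.4e-13). It was higher with TAK901 as well (0.31 and 0.35, adjusted p = 7.3e-04 and 2.3e-04). Traf1, a signalling adaptor, fell at 2.5 µM from 123 ± 5.77 to 14.4 ± 0.931 CPM (SD, n = 2) (-3.09, SE 0.10, adjusted p = 1.7e-22). Of 5 other members of the IkB family 3 rose at 1.25 µM, and 2 rose and 2 fell at 2.5 µM. Nfkbie, which encodes IkB epsilon, rose at 1.25 µM (0.87, adjusted p = 2.0e-07) and fell at 2.5 µM (-2.49, adjusted p = 3.2e-15). Nfkbiz, a nuclear member of that family, rose at 2.5 µM from 25.2 and 25.3 to 61.8 and 86.7 CPM (1.54, SE 0.11, adjusted p = 1.3e-13).

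Of the 4 other subunit genes 2 rose and 1 fell at 1.25 µM, and 1 rose and 3 fell at 2.5 µM (0 and 3 with total count scaling). Nfkb2, whose product pairs with the Relb protein, was at 255 and 236 CPM in DMSO 1 and 2 and fell at 2.5 µM to 107 and 117 CPM (-1.14, SE 0.07, adjusted p = 3.9e-15). Among 29 kinases and adaptors 12 rose and 4 fell at 1.25 µM, and 9 rose and 16 fell at 2.5 µM (6 and 19 with total count scaling), doses at which 45.9% and 70.3% of all genes passed. Map3k14, the kinase that starts the non-canonical arm, rose at 1.25 µM from 27.6 and 32.1 to 65.5 and 58.9 CPM (1.06, SE 0.11, adjusted p = 2.1e-09). Xiap, a relative of Birc3, fell at 2.5 µM (-1.96, adjusted p = 4.6e-19). With TAK901 1 kinase or adaptor gene fell at 1 µM: Ikbkg, the scaffold of the kinase complex (-0.47, adjusted p = 1.9e-05, and -0.54 at 2 µM, adjusted p = 5.4e-06).

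The receptor list held 13 genes, among them Il1rn, which encodes a receptor antagonist. Of these 7 rose and 2 fell at 1.25 µM (median 0.52), and 0 rose and 9 fell at 2.5 µM (median -0.96). The death receptor gene Fas was at 3.19 and 2.59 CPM in DMSO 1 and 2 and 59.0 and 56.9 CPM at 1.25 µM (4.32, SE 0.19, adjusted p = 1.9e-18). Il1r1 and Tlr4, receptors that signal to NF-kB, fell by 2.63 and 2.39 at 2.5 µM on the log2 scale (adjusted p = 2.3e-16 and 4.7e-19). With TAK901 5 genes of the receptor list rose and 1 fell at 1 µM, and 4 and 1 at 2 µM. Tlr2 rose from 23.4 and 22.9 CPM to 35.5 and 33.2 (0.57, adjusted p = 0.00207) and 45.2 and 42.0 CPM (0.92, adjusted p = 1.2e-05). Of 7 ligand genes tested 2 rose and 2 fell at 1.25 µM, and Il1a fell at both ENMD-2076 doses (-1.86 and -2.86, adjusted p = 1.5e-04 and 5.3e-06). Tnfsf13b, a ligand of the non-canonical arm, had 1 and 0 reads in DMSO 1 and 2 and 86 and 73 at 2.5 µM.

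Other known targets did not move as 1 group. Of 14 cytokine and chemokine genes 5 rose and 6 fell at 1.25 µM, and 4 rose and 5 fell at 2.5 µM. The neutrophil chemokine gene Cxcl3 rose at both doses (2.73 and 3.14, adjusted p = 7.7e-14 and 9.8e-16). Il6 had 0 reads in DMSO 1 and 2 and 32 and 16 at 2.5 µM. Csf2 had none at 2.5 µM, against a mean of 1.13 CPM in DMSO 1 and 2. Of 20 other target genes 11 rose and 5 fell at 1.25 µM, and 8 rose and 9 fell at 2.5 µM (5 and 11 with total count scaling). Complement gene C3 was at 88.1 and 90.1 CPM in DMSO 1 and 2, 504 and 555 CPM at 1.25 µM (2.57, adjusted p = 1.4e-24) and 11.5 and 9.99 CPM at 2.5 µM (-3.04, adjusted p = 5.3e-23). Sod2, which encodes the mitochondrial superoxide dismutase, rose at 2.5 µM (1.79, adjusted p = 5.2e-19).

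With TAK901 3 of the cytokine and chemokine genes rose at each dose, with 1 fall at 1 µM. Of the other targets 3 rose and 2 fell at 1 µM, and 5 rose and 3 fell at 2 µM. C3 rose from 228 and 227 CPM to 452 and 462 (2.01-fold, adjusted p = 7.9e-13) and 633 and 657 CPM (2.84-fold, adjusted p = 3.0e-17). Lcn2, an iron-binding defence protein gene, rose as well (1.76-fold and 2.46-fold, adjusted p = 4.0e-06 and 1.0e-09). Around Ptgs2 in the prostanoid pathway, 4 of 11 genes tested rose and 2 fell at 1.25 µM ENMD-2076, and 3 rose and 4 fell at 2.5 µM. Ptges, the synthase that takes up the Ptgs2 product, fell at both ENMD-2076 doses: it was at 14.6 ± 0.569 CPM (SD, n = 2) in DMSO 1 and 2, 9.62 and 7.86 CPM at 1.25 µM (-0.77, adjusted p = 5.1e-06) and 3.03 and 4.07 CPM at 2.5 µM (-2.07, adjusted p = 1.2e-12). Pla2g4a, the phospholipase that releases arachidonic acid, rose at 1.25 µM (0.76, adjusted p = 5.2e-11).

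The genes whose pattern was most like each member were read from Pearson's r of log2 CPM over the 12 libraries labelled 4T1, after the mean of the DMSO pair of each set was subtracted, among 11191 genes. They were Tmem9b (0.982), Chdh (0.977) and Ndufv3 (0.976) for Nfkbia, and Fgd3 (0.996), Parp9 (0.994) and Arhgap42 (0.994) for Tnfaip3. For Relb they were Hvcn1 (0.969), Zfp94 (0.963) and Zmynd11 (0.961). Those of Ptgs2 were Dtx3l (0.992), Sytl2 (0.992) and Fas (0.990), and those of Birc3 Mff (0.994), Kifap3 (0.994) and Tmem19 (0.992). None of these 15 is another member. The points share libraries and scaling, and r over 12 libraries in 6 groups describes the pattern only.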

How the data were processed

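Total RNA of 22 libraries was sequenced on an Illumina HiSeq instrument after NEBNext Ultra library preparation, per the labels' protocols. The deposited tables hold whole-number read counts per gene for 1 library each. Per the submitters' processing notes the tools were FastQC 0.11.3, Bowtie, TopHat, HTSeq and DESeq2, with builds hg38 and mm10. How HTSeq treated strand was not found in them. The members and lists were chosen with earlier results of these data known. Set 2 tables end in HTSeq summary lines, which were left out (not aligned 16.4 to 40.1% of records). Mouse names came from a gene table (37607 of 38924 IDs matched). Human genes other than the members are not named, since no table of human names was used. Headers inside the ENMD-2076 tables of 4T1 give doses other than the labels, and the growth protocol gives 1 or 2 µM. The labels were followed.

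The test was that of edgeR 4.0.16 in R 4.3.3 (genes kept by filterByExpr, TMM scaling, quasi-likelihood F test, two-sided), in 1 fit per line with group as the term, and adjusted by Benjamini-Hochberg over all genes tested, with a threshold of 0.05. SE was derived from the log2 fold change and its F value, and intervals are 95% intervals of the fit. A simulation with known changes was used to check the fit. Replicate numbers did not pair libraries (correlations of deviations -0.0213 to 0.106), and every pair of replicates differed beyond sampling noise (chi-square over its degrees of freedom 2.39 to 54.2). Named pathway genes were, per list and comparison with DMSO, at most the 2 largest rises and the 2 largest falls past the threshold with a mean of at least 1 CPM in a group. Alternatives were DESeq2 1.42.0, total count scaling, no filter, fits of fewer groups, a replicate block and leaving out libraries.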

Additional observations from a re-analysis of the deposited data

Results flagged for a closer look

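Nfkbia and Relb lay on opposite sides of DMSO in the lines at the labelled dose of 2.5 µM ENMD-2076, with every treated library on 1 side of both controls. The Nfkbia log2 fold change was -0.14 in MDA-MB-231 and 1.34 in the libraries labelled 4T1. For Relb it was 0.16 in MDA-MB-231 and -0.61 in the libraries labelled 4T1. The margin of RELB in MDA-MB-231 was small, with 36.6 and 36.0 CPM against 35.7 and 29.6 in DMSO. The 95% intervals in MDA-MB-231 were -0.36 to 0.08 for NFKBIA and -0.17 to 0.48 for RELB. The MDA-MB-231 values did not pass the test against DMSO, and the difference between the lines was not tested. For the pair labelled 4T1 the growth protocol gives 1 or 2 µM in place of the labelled dose. Line, species, the dose given and the high Gm26917 of that pair cannot be told apart.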

How the results depend on the processing

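Of 28 member results past the threshold, 20 kept it under every alternative run and 8 lost it under some. The members called at TAK901 1 µM in MDA-MB-231 were 1, and 2 without a filter, 3 with only the 2 groups, 2 with a replicate block, and 4 without both TAK901 2 µM libraries (0 to 4 over the libraries left out in turn). At TAK901 2 µM and ENMD-2076 2.5 µM in MDA-MB-231 the count of members also moved with the library left out. In these and the other comparisons of this paragraph, the number of all genes passing moved over the libraries left out as well. Between TAK901 doses the count of 1 became 0 with total count scaling or only the 2 groups and 2 without a filter (0 to 3 over libraries left out), and between ENMD-2076 doses 0 became 1 with only the 2 groups. At TAK901 1 µM in the libraries labelled 4T1 the count of 2 became 4 with total count scaling, only the 2 groups, naming set 2 alone, or without both ENMD-2076 2.5 µM libraries (2 to 4 over libraries left out). The replicate block moved no other count of members by over 1.5 times, and the replicate numbers share no stated source. It was not run for TAK901 against DMSO in the libraries labelled 4T1. Between TAK901 doses there, the block took all genes passing from 11 to 102 and pathway genes from 1 to 6. Over all genes, 2065 passed at TAK901 1 µM in MDA-MB-231, 3153 with only the 2 groups and 3970 without both TAK901 2 µM libraries. Those labelled 4T1 had 1406 at that dose, 3719 with only the 2 groups and 3042 with naming set 2 alone. Between ENMD-2076 doses in MDA-MB-231, 2 of all genes became 707 with only the 2 groups. The cause of these changes was not tested.

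Values that changed sign were not past the threshold, except Nfkbia between ENMD-2076 doses in 4T1, at -0.04 with total count scaling. Ptgs2 with 2.5 µM ENMD-2076 became 0.08 in DESeq2, 0.00 with the block, 0.01 with set 1 alone and -0.16 to 0.06 over libraries left out. Between TAK901 doses in 4T1, Ptgs2 became 0.02 in DESeq2, with set 2 alone and without the ENMD-2076 2.5 µM pair, and 0.03 with total count scaling, only the 2 groups or the block. Over libraries left out Ptgs2 was -0.05 to 0.05, among them 0.00 and 0.04, Relb -0.08 to 0.09, among them -0.03, and Birc3 -0.28 to 0.28. Relb was -0.00 without a filter. In MDA-MB-231 the ranges over libraries left out were -0.10 to 0.24 for BIRC3 at 2.5 µM ENMD-2076, -0.06 to 0.17 for TNFAIP3 and -0.14 to 0.31 for PTGS2 at 5 µM, -0.06 to 0.39 for PTGS2 at 1 µM TAK901, -0.44 to 0.23 (0.07 among them) for TNFAIP3 at 2 µM, and -0.08 to 0.04 for RELB between ENMD-2076 doses. Birc3 rested on 30 to 75 reads in 3 libraries, and no detection limit was computed.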
